A study of Mus musculus with 6 samples.

Results

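The genes described here encode the guidance cues of the semaphorin, ephrin, SLIT and netrin families and the receptors that read them. They were taken from a table of read counts per gene by symbol: names starting with Sema, Plxn, Efna, Efnb, Epha, Ephb, Robo or Unc5, the numbered Slit and Ntn genes, and Nrp1, Nrp2, Dcc and Neo1. Of 35415 genes in the table, 73 matched, and the 69 with at least 10 counts in at least 3 of the 6 libraries were kept. Among these, 35 encode ligands and 32 receptors, and the other 2 share only the letters of the name: Unc50, which is not a netrin receptor, and Plxna4os1, a transcript named as antisense to Plxna4. They were counted as members because the names matched and are otherwise left aside.

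The libraries were made from whole ovaries of mice at 3 months of age, collected at estrus. One group of 3 mice was heterozygous for Rnf111 (Rnf111+/-, made by CRISPR-Cas9) and the other group of 3 was wild type, with 1 library for each mouse. Rnf111 encodes Arkadia, a ubiquitin ligase of TGF-beta family signalling, and the study asks how a damaged copy of it bears on premature ovarian insufficiency. The study made 2 edited mouse models, and which of them was sequenced is not given in the sources used here, nor are strain and litter. Levels are given as CPM, a gene's count relative to the scaled total of its library. Fold changes are on the log2 scale, Rnf111+/- over wild type, with the standard error (SE) of the fit. A gene was called when edgeR's quasi-likelihood test, adjusted over all 16841 tested genes, gave an adjusted p under 0.05. In whole ovaries, fewer cells of a type and less RNA per cell cannot be told apart, and this holds for every level below.

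Guidance cues were first described in growing axons, where a cue on one cell, or secreted by it, steers another cell that carries its receptor. The same proteins act in blood vessels and epithelia. Semaphorins signal through plexins, which switch off small GTPases of the R-Ras and Rap families, and the secreted class 3 semaphorins usually need a neuropilin as coreceptor. Ephrins are bound to the membrane and signal in both directions with Eph receptor tyrosine kinases. SLITs signal through ROBO receptors. Netrins are laminin-like proteins that signal through DCC, neogenin (Neo1) and the UNC5 receptors, and neogenin also binds repulsive guidance molecules, which are coreceptors for bone morphogenetic proteins.

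Library totals lay between 38261449 and 39474515 counts. Rnf111 itself was at 44.2, 44.9 and 44.7 CPM in Rnf111+/- ovaries, against 53.8, 53.5 and 54.4 CPM in wild-type ovaries. This was a fitted log2 difference of -0.27 ± 0.07 (SE, adjusted p = 0.04), and the call was kept in 1 of the 6 fits that left out a library. Wild-type replicate 3 stood apart. The Rnf111+/- libraries correlated with each other at 0.9861 to 0.9885 (Pearson's r of log2 CPM across genes). Of the wild-type pairs, replicates 1 and 2 correlated at 0.9887, and replicate 3 with them at 0.9735 and 0.9745. The 10 oviduct epithelium markers summed to 29.3 to 32 CPM in Rnf111+/- libraries, against 27.3 and 30.8 CPM in wild-type replicates 1 and 2 and 202 CPM in replicate 3. Replicate 3 differed in other markers too. Luteal Akr1c18 was at 676 CPM in it, against 86.1 and 66.7 CPM in replicates 1 and 2. Granulosa Inhba was at 116 CPM, against 473 and 375 CPM, and macrophage markers summed to 595 CPM, against 395 and 356 CPM. A fit without this library thus leaves out more than its oviduct markers. For many of the genes below whose call, sign or fitted change depended on this library, the value without it is given. A gene shown without such a value need not be insensitive to it. Granulosa, oocyte, theca and stromal markers had counts in every library, as an ovary should, and the only markers with 0 counts in a library were the neuronal genes Dbh and Snap25.

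Of the 69 guidance genes, 5 rose in Rnf111+/- ovaries (Epha5, Sema3d, Sema5a, Ntn4 and Ephb6), 4 fell (Ephb2, Unc5a, Plxnd1 and Plxnb1), and 60 did not pass. This was 7.25% higher and 5.8% lower, against 3.9% called higher and 5.74% called lower among all tested genes. The median log2 fold change was 0.07 over the guidance genes and -0.01 over all tested genes, and the median size of the change, without its sign, was 0.31 and 0.20. All 69 genes passed the filter on low counts. By role, 3 of 35 ligands rose and 0 fell by edgeR, with 10 ligands at an unadjusted p under 0.05. Of 32 receptors, 2 rose and 4 fell. By edgeR, 22 of the 69 guidance genes had an unadjusted p under 0.05, as had 4290 of all 16841 tested genes. The latter is the background for such counts by family below. Every Rnf111+/- library lay above every wild-type library for 12 of the 69 genes and below for 10. Among all tested genes these shares were 15.1% above and 16.9% below, so the guidance genes (17.4% and 14.5%) were close to the background. Some genes that did not pass had larger fitted changes than called ones, among them Plxnb3 (-1.86 ± 0.88) and Epha8 (1.37 ± 0.72). Plxnb3 had 3 to 47 counts, with the 47 in wild-type replicate 3, and its change was -0.66 without that library. Epha8 had 7 to 106 counts, spread widely within each genotype (coefficients of variation of 69.4% in Rnf111+/- and 85.3% in wild-type libraries).

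**Figure D1:**
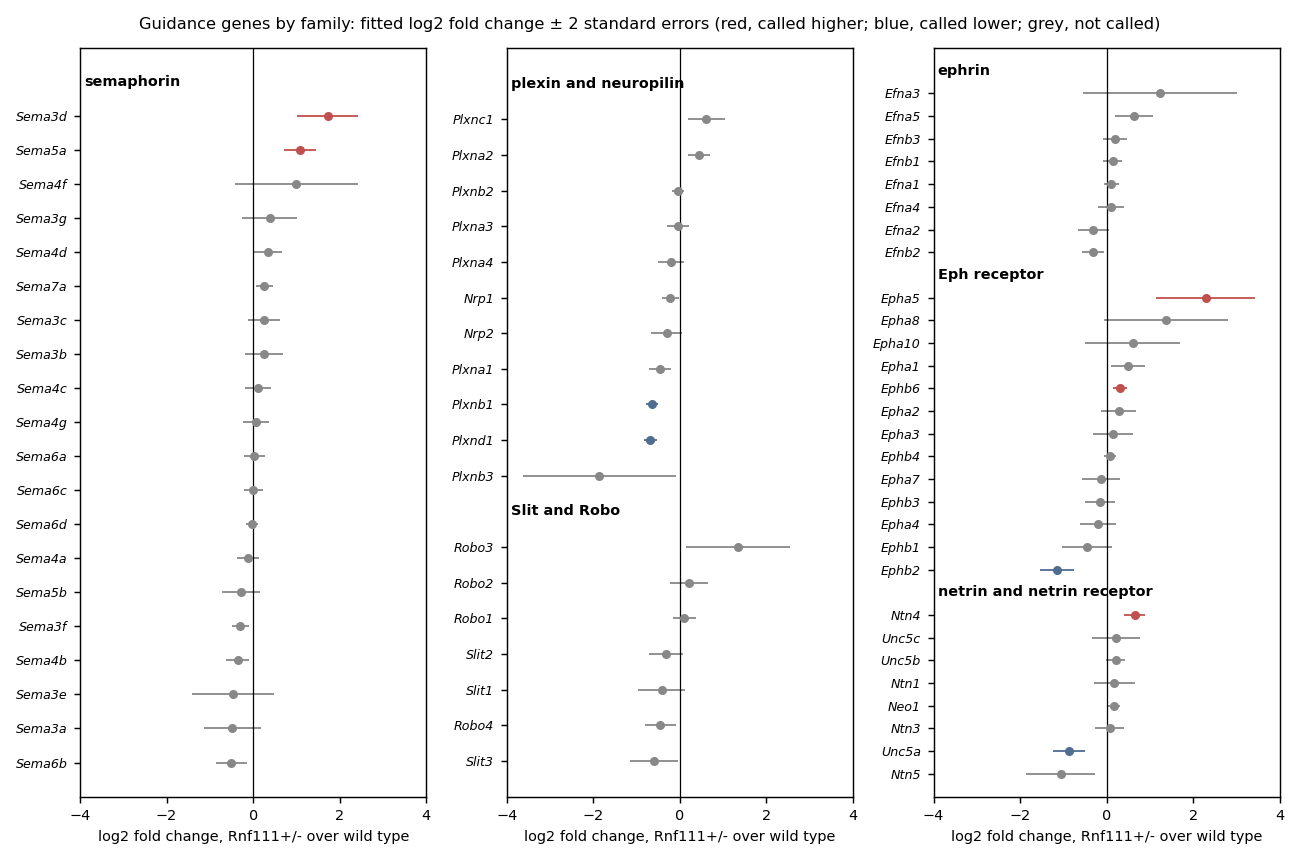
Fitted log2 fold change (x axis, Rnf111+/- over wild type) of the 67 guidance genes proper, 1 row per gene, grouped by family, with bars of 2 standard errors either side. The 5 genes called higher are red, the 4 called lower blue and the others grey. The widest bars belong to genes with few counts, such as Plxnb3, Efna3 and Epha8.

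The receptors of semaphorins gave the steadiest falls. Plxnb1, the receptor of the transmembrane semaphorin Sema4d, was at 186, 179 and 197 CPM in Rnf111+/- ovaries, against 302, 296 and 277 CPM in wild-type ovaries. Plxnd1, a plexin best known in the endothelium, where it receives Sema3e, was at 139.8, 119.8 and 133 CPM in Rnf111+/- ovaries, against 216, 215 and 198 CPM in wild-type ovaries. For both, the genotypes did not overlap, and the libraries of a genotype lay close together. The mean of Plxnb1 in Rnf111+/- ovaries was 64.2% of that in wild type (log2 -0.64 ± 0.07 SE, adjusted p = 0.00143). That of Plxnd1 was 62.3% (log2 -0.68 ± 0.08 SE, adjusted p = 0.00192). Both calls were kept in each of the 13 alternative fits. With single libraries left out, the change lay between -0.67 and -0.60 for Plxnb1 and between -0.73 and -0.61 for Plxnd1.

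The promoters of these steadiest calls, Plxnb1 and Plxnd1, are shown together with that of Ntn4, which rose. They are the 300 bases from 250 before to 50 after the annotated start in RefSeq on build GRCm38.p6, 5′ to 3′ along the gene. The counts were made on GRCm39, so these coordinates are those of the sequence table only. Capitals would mark a motif, and these windows hold none of the 5 searched.
Plxnb1 promoter, chr9:109095186-109095485, plus strand: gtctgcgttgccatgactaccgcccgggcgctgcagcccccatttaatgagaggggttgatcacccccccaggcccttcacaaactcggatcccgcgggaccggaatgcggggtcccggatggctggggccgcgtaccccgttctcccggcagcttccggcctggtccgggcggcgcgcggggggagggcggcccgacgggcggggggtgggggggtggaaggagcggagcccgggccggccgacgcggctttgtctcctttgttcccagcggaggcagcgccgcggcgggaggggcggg
Plxnd1 promoter, chr6:115994956-115995255, minus strand: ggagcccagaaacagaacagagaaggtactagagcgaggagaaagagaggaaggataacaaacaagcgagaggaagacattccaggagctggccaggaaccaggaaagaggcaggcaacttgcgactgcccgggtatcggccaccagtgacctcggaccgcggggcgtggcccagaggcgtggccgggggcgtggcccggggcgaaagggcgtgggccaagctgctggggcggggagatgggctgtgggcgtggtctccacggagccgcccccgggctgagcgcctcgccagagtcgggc
Ntn4 promoter, chr10:93640799-93641098, plus strand: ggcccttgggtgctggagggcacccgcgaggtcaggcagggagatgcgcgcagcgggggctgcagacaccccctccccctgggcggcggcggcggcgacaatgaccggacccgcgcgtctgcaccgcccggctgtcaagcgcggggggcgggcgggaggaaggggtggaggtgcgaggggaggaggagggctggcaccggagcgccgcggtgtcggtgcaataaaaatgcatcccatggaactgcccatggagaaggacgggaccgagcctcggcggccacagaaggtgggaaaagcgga

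The motifs looked for on both strands of each promoter were the SMAD palindrome GTCTAGAC, the SMAD-binding 5GC sequence GGCGCC, the NR5A half-site CAAGGTCA, the cyclic AMP response element TGACGTCA and the hypoxia core ACGTG. None of these motifs is contained in another. RefSeq promoters were matched by symbol for 60 of the 69 genes, with 76 promoters in all. GGCGCC was in 22.4% of the guidance promoters, against 11.9% of all 32851 promoters of the same length, and ACGTG was in 17.1%, against 19.6%. The guidance promoters had a median GC content of 64.5%, against 52.7% for all promoters, and GGCGCC is made of G and C only. The other 3 motifs were each in 1 guidance promoter or in none, against 0.213% of all promoters for the SMAD palindrome, 1.56% for the NR5A half-site and 1.79% for the cyclic AMP response element. Of the 9 called genes, Ephb6 (higher) and Unc5a (lower) held GGCGCC, and Ephb6 also held the hypoxia core on its reverse strand. Their promoters follow on the same build, with the motifs in capitals.
Ephb6 promoter, chr6:41605261-41605560, plus strand: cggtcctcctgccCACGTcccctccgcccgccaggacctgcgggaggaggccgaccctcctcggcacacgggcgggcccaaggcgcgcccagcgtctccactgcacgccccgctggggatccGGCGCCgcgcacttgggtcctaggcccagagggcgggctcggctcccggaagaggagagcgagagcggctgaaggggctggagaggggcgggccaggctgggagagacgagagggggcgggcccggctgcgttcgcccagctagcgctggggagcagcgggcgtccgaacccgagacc
Unc5a promoter, chr13:54949161-54949460, plus strand: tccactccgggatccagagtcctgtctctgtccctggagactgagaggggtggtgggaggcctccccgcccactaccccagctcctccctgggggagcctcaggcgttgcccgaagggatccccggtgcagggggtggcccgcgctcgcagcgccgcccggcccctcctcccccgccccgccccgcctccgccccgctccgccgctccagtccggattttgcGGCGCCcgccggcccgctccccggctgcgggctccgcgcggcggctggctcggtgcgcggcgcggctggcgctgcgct

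The other plexins and neuropilins did not pass by edgeR, while DESeq2 also called Plxna1 (adjusted p = 0.0149), Plxna2 (0.0219) and Plxnc1 (0.00979). Plxnb2, a close relative of Plxnb1, was at 374, 383 and 358 CPM in Rnf111+/- ovaries, against 396, 371 and 382 CPM in wild-type ovaries. Its fitted change was -0.04, with an interval of 2 standard errors from -0.17 to 0.09, so a change of the size seen in Plxnb1 lay outside that interval. Plxna1, which pairs with neuropilins to read class 3 semaphorins, was at 200.2, 213 and 189 CPM in Rnf111+/- ovaries, against 273, 329.5 and 225 CPM in wild-type ovaries. All 3 Rnf111+/- libraries lay below wild type, and the gene did not pass (log2 -0.46 ± 0.13 SE, adjusted p = 0.0677). It passed without wild-type replicate 3 (log2 -0.57, adjusted p = 0.00143), and stood at -0.30 (adjusted p = 0.155) without wild-type replicate 2. Plxna2 went the other way, at a log2 change of 0.44 ± 0.13 (adjusted p = 0.0764), and it passed without the same library (log2 0.62, adjusted p = 0.000755). Plxnc1, the receptor of Sema7a, was higher in all 3 Rnf111+/- libraries at 222, 322 and 274 CPM, against 214, 189 and 131 CPM in wild-type libraries, and did not pass (log2 0.61 ± 0.21 SE, adjusted p = 0.123). Plxna2, Plxnb2 and Plxnc1 were chosen after their values were seen.

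Neuropilins serve both semaphorins and the vascular growth factor VEGF. Nrp1 was at 78.5, 84.2 and 87.8 CPM in Rnf111+/- ovaries, against 91.5, 87.5 and 113 CPM in wild-type ovaries. Nrp2 was at 91, 93.2 and 99 CPM in Rnf111+/- ovaries, against 97.2, 97.8 and 155 CPM in wild-type ovaries. In both genes the genotypes overlapped and the highest value was that of wild-type replicate 3. The fitted changes were -0.22 ± 0.10 for Nrp1 (adjusted p = 0.226) and -0.31 ± 0.18 for Nrp2 (adjusted p = 0.354). Without that library they were -0.09 for Nrp1 (adjusted p = 0.461) and -0.04 for Nrp2 (0.774).

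Among 20 semaphorin genes, 2 rose and 0 fell by edgeR, with 6 at an unadjusted p under 0.05, and DESeq2 called 0 lower as well. Sema5a, a transmembrane semaphorin with thrombospondin repeats, was at 439, 638 and 575 CPM in Rnf111+/- ovaries, against 300.0, 276 and 203 CPM in wild-type ovaries. Its mean was 2.12-fold higher in Rnf111+/- ovaries (551 ± 102 CPM, SD, n = 3) than in wild-type ovaries (259.7 ± 50.4 CPM, n = 3), with no overlap. The fitted change was 1.08 ± 0.18 (SE, adjusted p = 0.0151), and the call was lost without Rnf111+/- replicate 2 (adjusted p = 0.052) and without Rnf111+/- replicate 3 (0.0625). Sema3d, a secreted class 3 semaphorin, was at 50.4, 44.8 and 21.3 CPM in Rnf111+/- ovaries, against 9.32, 11.2 and 15 CPM in wild-type ovaries. The genotypes did not overlap, but Rnf111+/- replicate 3 lay much nearer to wild type than the other two. The mean was 3.29-fold higher (log2 1.72 ± 0.35 SE, adjusted p = 0.0332), and the call was kept in 1 of the 6 fits that left out a library, with adjusted p between 0.00456 and 0.11. With no minimum count for genes to be tested, Sema3d missed the threshold (adjusted p = 0.114). Without wild-type replicate 3 its change was 1.93 (adjusted p = 0.0741).

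**Figure D2:**
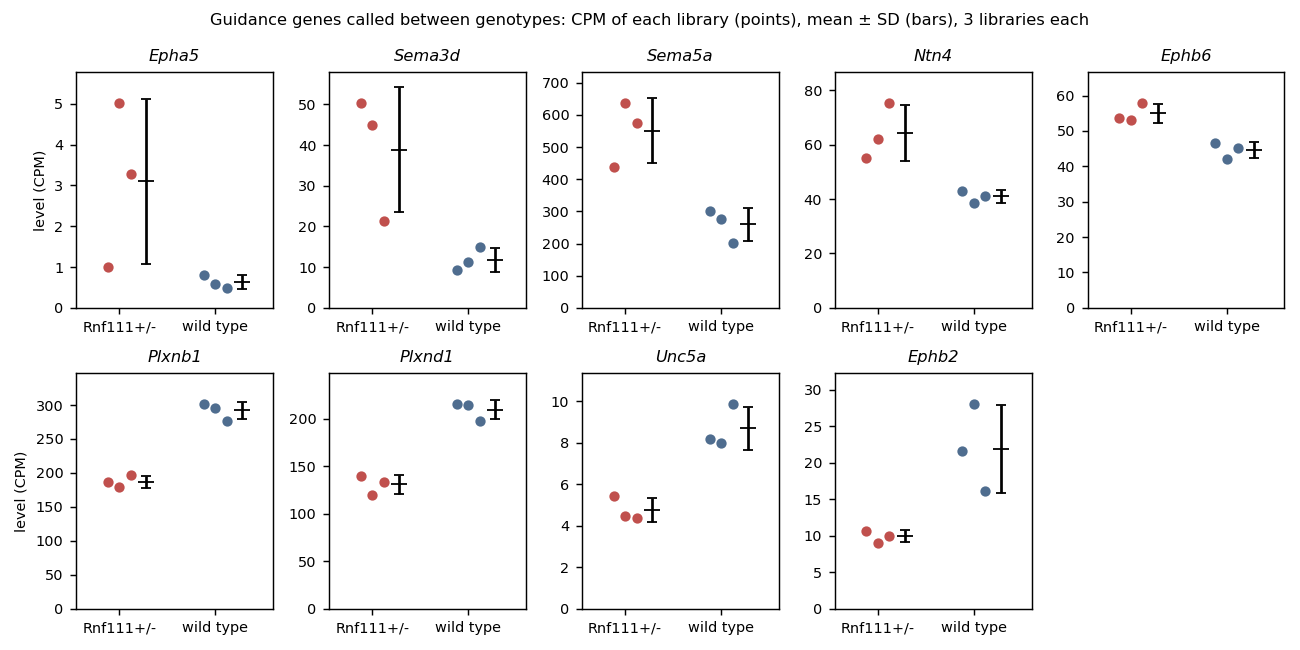
Level in CPM (y axis, from 0) of the 9 called guidance genes, with 1 point for each Rnf111+/- (red) and wild-type (blue) library and the mean ± SD of 3 libraries beside them. The Rnf111+/- points of Epha5 and Sema3d are the most widely spread along their axes, while those of Plxnb1 and Plxnd1 lie together below wild type.

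The other 18 semaphorins had fitted changes from -0.51 (Sema6b) to 0.38 (Sema3g), apart from Sema4f, which had 11 to 19 counts in Rnf111+/- libraries and 1 to 12 in wild-type libraries (adjusted p = 0.427). Sema4d, the ligand of Plxnb1, was at 21.2, 22.7 and 20.8 CPM in Rnf111+/- ovaries, against 15, 14.4 and 21.3 CPM in wild-type ovaries. Only wild-type replicate 3 reached the Rnf111+/- range. The change was 0.35 ± 0.16 (adjusted p = 0.207) with all libraries and 0.56 (adjusted p = 0.007) without that one. Sema3e, the ligand of Plxnd1, was at 3.84, 2.94 and 3.63 CPM in Rnf111+/- ovaries, against 2.64, 2.85 and 8.94 CPM in wild-type ovaries. Its sign depended on wild-type replicate 3, with -0.47 ± 0.47 (adjusted p = 0.59) in the full fit and 0.35 (adjusted p = 0.384) without it. Sema3a, the founding repellent of the family, was at 1.67, 3.83 and 2.27 CPM in Rnf111+/- ovaries, against 3.05, 3.32 and 4.47 CPM in wild-type ovaries (log2 -0.48 ± 0.33 SE, adjusted p = 0.415). Sema3c, a class 3 ligand that binds both neuropilins, was at 64.4, 83.2 and 75.6 CPM in Rnf111+/- ovaries, against 70.7, 70.5 and 46.3 CPM in wild-type ovaries (log2 0.25 ± 0.18 SE, adjusted p = 0.429). Both sets overlapped between genotypes, and without wild-type replicate 3 the changes were -0.29 for Sema3a and 0.09 for Sema3c. Sema6c and Sema6d, transmembrane semaphorins chosen after their values were seen, had changes of 0.00 ± 0.11 and -0.03 ± 0.07, and the interval of 2 standard errors of Sema6d ran from -0.17 to 0.12.

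Eph receptors held the largest rise and the largest fall among the called guidance genes. Of 13, 2 rose and 1 fell, while 0 of the 8 ephrins were called by edgeR, with 2 at an unadjusted p under 0.05. DESeq2 called 1 of the ephrins, Efna5. Ephb2, a receptor of B-class ephrins, was at 10.7, 9.04 and 10 CPM in Rnf111+/- ovaries, against 21.6, 28.1 and 16.1 CPM in wild-type ovaries. Its Rnf111+/- values lay together and below all wild-type values, which were themselves spread widely. The mean in Rnf111+/- ovaries was 45.2% of that in wild type (log2 -1.15 ± 0.20 SE, adjusted p = 0.0112), and the call was lost without Rnf111+/- replicate 2 (adjusted p = 0.0624) or 3 (0.0567). Epha5, a receptor of A-class ephrins, was at 0.996, 5.03 and 3.27 CPM in Rnf111+/- ovaries, against 0.809, 0.596 and 0.485 CPM in wild-type ovaries. These are 40, 197 and 125 counts against 31, 23 and 19, so Rnf111+/- replicate 1 stood just above wild type. The fitted rise of 2.29 ± 0.57 (SE, adjusted p = 0.0421) was called in 1 of the 6 fits that left out a library and was lost with limma-voom (adjusted p = 0.139). Without wild-type replicate 3 the Epha5 change was 2.14 (adjusted p = 0.0798). Ephb6, an Eph receptor that lacks kinase activity, was at 53.8, 53.2 and 58 CPM in Rnf111+/- ovaries, against 46.5, 42 and 45.1 CPM in wild-type ovaries. The groups did not overlap, but the rise was small (log2 0.30 ± 0.08 SE, adjusted p = 0.0444) and was called in 1 of the 6 fits with a library left out.

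Ephb4 and its ligand Efnb2 mark veins and arteries. Ephb4 was at 108, 117 and 108 CPM in Rnf111+/- ovaries, against 101, 109 and 105 CPM in wild-type ovaries. Its change was 0.07, with an interval from -0.06 to 0.21. Efnb2 was at 32.3, 25.6 and 27.3 CPM in Rnf111+/- ovaries, against 29.6, 38.4 and 37.7 CPM in wild-type ovaries (log2 -0.31 ± 0.13 SE, adjusted p = 0.18). Neither gene separated the genotypes. Efnb1, a ligand of Ephb2, was at 153, 115 and 124 CPM in Rnf111+/- ovaries, against 120.0, 109.5 and 127 CPM in wild-type ovaries, and Epha2, an epithelial Eph receptor, was at 13.1, 8.71 and 13.5 CPM against 8.9, 8.6 and 11.6 CPM. Their changes were 0.14 ± 0.11 (adjusted p = 0.476) and 0.28 ± 0.20 (adjusted p = 0.446), and that of Epha2 was 0.43 (adjusted p = 0.166) without wild-type replicate 3. Efna5, a ligand of Epha5 chosen after its values were seen, was at 19.7, 22.7 and 18.1 CPM in Rnf111+/- ovaries, against 15.1, 15.1 and 8.61 CPM in wild-type ovaries. All 3 Rnf111+/- values were higher, but the change of 0.64 ± 0.22 did not pass (adjusted p = 0.109). It passed with DESeq2 (0.0278) and without wild-type replicate 3 (log2 0.43, adjusted p = 0.0481).

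Neither edgeR nor DESeq2 called any of the 7 SLIT and ROBO genes, 1 of which had an unadjusted p under 0.05. The 3 ligand genes had fitted changes between -0.60 and -0.32. Slit2 was at 6.85, 10.5 and 11 CPM in Rnf111+/- ovaries, against 11.2, 11 and 13.1 CPM in wild-type ovaries. Slit3 was at 32.1, 25.1 and 34.6 CPM in Rnf111+/- ovaries, against 40.2, 32.2 and 66.5 CPM in wild-type ovaries. The Slit3 value of wild-type replicate 3 stood far above the rest, and without it the change was -0.23, against -0.60 ± 0.28 with all libraries. Robo1, a main SLIT receptor, was at 99.2, 129 and 101 CPM in Rnf111+/- ovaries, against 107, 111 and 88.4 CPM in wild-type ovaries (log2 0.10 ± 0.13 SE, adjusted p = 0.66, and 0.02 without wild-type replicate 3). Robo2, its close relative, was at 43.4, 54.7 and 42.9 CPM in Rnf111+/- ovaries, against 34.6, 31.9 and 55.3 CPM in wild-type ovaries. Here too wild-type replicate 3 was the highest library, and Robo2 was at 0.21 ± 0.22 (adjusted p = 0.603) with it and at 0.51 (adjusted p = 0.014) without it. Robo4, which is largely endothelial, was at 13.8, 16 and 19 CPM in Rnf111+/- ovaries, against 21.3, 17.7 and 27.6 CPM in wild-type ovaries (log2 -0.45 ± 0.18 SE, adjusted p = 0.173). Without wild-type replicate 3, its highest library, the change was -0.25 (adjusted p = 0.308).

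Of the netrins and their receptors, Ntn4 rose and Unc5a fell. Ntn4, a netrin of basement membranes that binds laminin, was at 55, 62.3 and 75.5 CPM in Rnf111+/- ovaries, against 43.1, 38.6 and 41.2 CPM in wild-type ovaries. Every Rnf111+/- value exceeded every wild-type value, and the mean was 1.57-fold higher (log2 0.65 ± 0.12 SE, adjusted p = 0.0131). This was the one rise among the guidance genes whose call was kept in all 13 alternative fits, with adjusted p of up to 0.0489. Unc5a, a netrin receptor, was at 5.43, 4.47 and 4.39 CPM in Rnf111+/- ovaries, against 8.19, 7.98 and 9.88 CPM in wild-type ovaries. The Rnf111+/- mean was 54.8% of the wild-type mean (log2 -0.87 ± 0.18 SE, adjusted p = 0.0199), and Unc5a missed the threshold when Rnf111+/- replicate 2 (0.0943), Rnf111+/- replicate 3 (0.0903) or wild-type replicate 1 (0.0519) was left out. Exons of Hk3 lie on the other strand of Unc5a in the annotation used for names, and the strand setting of the counting is not given in the sources used here. Hk3 had 181, 251 and 164 counts in Rnf111+/- libraries and 116, 97 and 217 in wild-type libraries (log2 0.46, adjusted p = 0.426). Plxnb1 overlaps Gm7628 in the same way, which had 30 to 82 counts in every library, few beside the 7017 to 11579 of Plxnb1.

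Netrin receptors other than Unc5a did not pass. Neo1 was at 222, 235 and 212 CPM in Rnf111+/- ovaries, against 199, 205 and 196 CPM in wild-type ovaries. The groups did not overlap, but the change was small (log2 0.16 ± 0.07 SE, adjusted p = 0.183). Ntn1, the first known netrin, was at 13.5, 11.3 and 15.6 CPM in Rnf111+/- ovaries, against 9.94, 16.5 and 9.17 CPM in wild-type ovaries (log2 0.18 ± 0.24 SE, adjusted p = 0.69, and 0.03 without wild-type replicate 3). Unc5b, a vascular netrin receptor, was at 34.7, 31.6 and 32.8 CPM in Rnf111+/- ovaries, against 25.5, 28 and 32.2 CPM in wild-type ovaries, and Unc5c was at 2.62, 2.84 and 3 CPM against 1.57, 2.9 and 2.78 CPM. Unc5b was at 0.21 ± 0.11 (adjusted p = 0.258), and at 0.32 (adjusted p = 0.0477) without wild-type replicate 3, while Unc5c was at 0.22 ± 0.28 (adjusted p = 0.682), and at 0.34 without that library. Dcc, the classical netrin receptor, was among the 4 matches left out for low counts, with 5, 7 and 15 counts in Rnf111+/- libraries and 4, 5 and 0 in wild-type libraries. The others left out were Epha6, Unc5d and Unc5cl. Just inside the count minimum, Plxnb3 and Sema4f had third-highest counts of 11 and 12, and just outside it Epha6 and Unc5d had 7 each.

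Known ligand and receptor pairs were set side by side. In 9 pairs, the 2 genes had the same sign in 5 and opposite signs in 4, and in none were both called, though 1 gene was called in 3. For Plxnb1 the ligand Sema4d had the opposite sign to its receptor (0.35 ± 0.16 and -0.64 ± 0.07). For Plxnd1 the ligand Sema3e had the same sign (-0.47 ± 0.47 and -0.68 ± 0.08), but that sign turned without wild-type replicate 3. Ntn4 and Neo1 were both above 0 (0.65 ± 0.12 and 0.16 ± 0.07), and Slit3 and Robo4 both below 0 (-0.60 ± 0.28 and -0.45 ± 0.18).

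**Figure D3:**
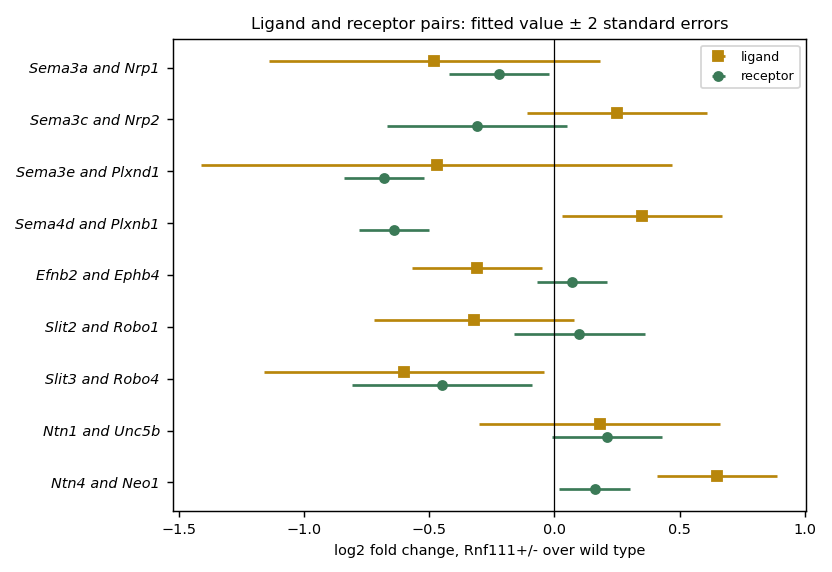
Fitted log2 fold change (x axis, Rnf111+/- over wild type) of 9 ligand (squares) and receptor (circles) pairs, with bars of 2 standard errors either side. The bars of Plxnb1 and its ligand Sema4d lie on opposite sides of 0, and 5 of the 9 pairs have both points on one side.

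Guidance receptors pass their signal to a shared set of GTPases, exchange factors and actin regulators. Of 73 such partner genes and further ligands and coreceptors, 71 were tested, and 6 rose and 9 fell in Rnf111+/- ovaries (8.45% and 12.7% of those tested, against the shares of 3.9% and 5.74% among all genes). The median change of the partner list was -0.03. Enah, an actin regulator of growth cones, was at 315, 326 and 360.1 CPM in Rnf111+/- ovaries, against 201, 202 and 212 CPM in wild-type ovaries (log2 0.70 ± 0.07 SE, adjusted p = 0.00118). Ngef, which encodes ephexin, an exchange factor that acts under Eph receptors, was at 12.2, 8.07 and 12.1 CPM in Rnf111+/- ovaries, against 3.86, 4.28 and 4.27 CPM in wild-type ovaries (log2 1.38 ± 0.20 SE, adjusted p = 0.00535). For both, the Rnf111+/- and wild-type values were well apart, and both calls were kept in all 6 fits that left out a library. Chn2, a chimaerin that switches off Rac, rose by 0.82 ± 0.14 (adjusted p = 0.0115), and Dpysl3, a collapsin response mediator protein, rose by 0.45 ± 0.10 (adjusted p = 0.0287). The Chn2 call was kept in 5 of those 6 fits and the Dpysl3 call in 1.

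Rras encodes R-Ras, one of the GTPases that plexins switch off. It was at 28.4, 27 and 29.5 CPM in Rnf111+/- ovaries, against 52.2, 56.4 and 48.3 CPM in wild-type ovaries (log2 -0.89 ± 0.09 SE, adjusted p = 0.00108). Rnd3, a small GTPase related to those that bind plexins, was at 29.8, 23.8 and 29.9 CPM in Rnf111+/- ovaries, against 55.6, 46.8 and 44.3 CPM in wild-type ovaries (log2 -0.81 ± 0.12 SE, adjusted p = 0.00681). In both the genotypes were clearly separate, and both calls were kept in all 6 fits with a library left out. Flrt1, of a family of UNC5 ligands, fell with a log2 change of -0.74 ± 0.10 (adjusted p = 0.00391), and Sh3bp1, a Rac regulator that binds plexins, with one of -0.70 ± 0.12 (adjusted p = 0.0102), and these calls were kept in 6 and 4 of the 6 fits. The other partner genes that passed were Fyn and Mical2, which rose, and Kdr, Farp1, Vav2, Tiam1 and Usp33, which fell. They are named to complete the count, after their values were seen, and each of these 7 calls was kept in only 1 or 2 of the 6 fits with a library left out. The repulsive guidance molecule genes Rgma (-0.24 ± 0.14) and Rgmb (0.10 ± 0.10), ligands of neogenin, did not pass.

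**Figure D4:**
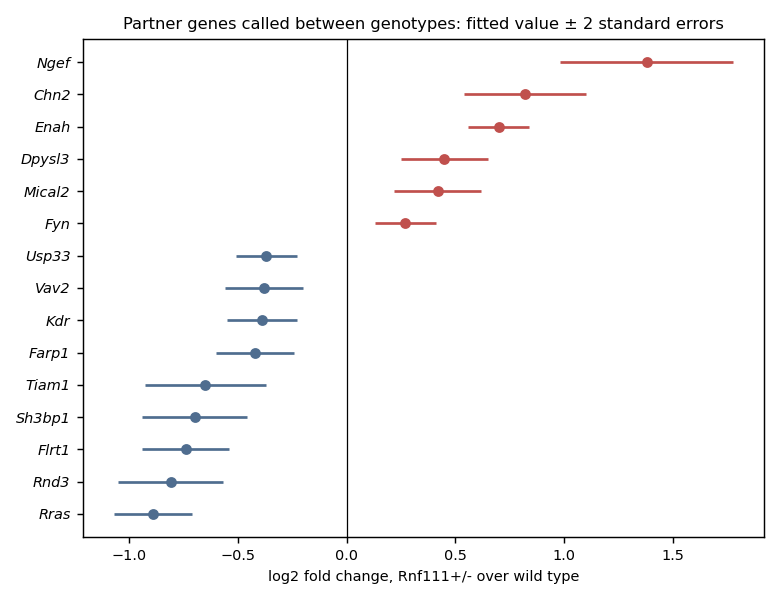
Fitted log2 fold change (x axis, Rnf111+/- over wild type) of the 15 called partner genes, with bars of 2 standard errors either side. The 6 that rose (red) run up to Ngef at 1.38, and the 9 that fell (blue) run down to Rras at -0.89.

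Markers of several cell types moved between the same libraries. Of 10 endothelial markers 7 fell and 0 rose by edgeR. Kdr, among these 7, is the same gene that was counted above as a partner gene that fell. The summed level of the 10 markers was 367 to 413 CPM in Rnf111+/- ovaries, against 496 to 578 CPM in wild-type ovaries. Per 100 CPM of these markers, Plxnd1 stood at 34.7, 32.7 and 32.2 CPM in Rnf111+/- ovaries, against 43.6, 41.8 and 34.2 CPM in wild-type ovaries. The means differed by -0.27 on the log2 scale, and the groups overlapped, since wild-type replicate 3 lay within the Rnf111+/- range. Plxnb1 set against the same markers overlapped too, at 46.2, 48.9 and 47.7 CPM in Rnf111+/- ovaries, against 61, 57.6 and 47.9 CPM in wild-type ovaries.

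Stromal markers also fell (7 of 10), at 2097 to 2474 CPM in Rnf111+/- ovaries against 3431 to 4017 CPM in wild-type ovaries. Pericyte and smooth muscle markers (3 of 10 fell) summed to 867 to 1119 CPM against 1305 to 1609 CPM. Surface epithelium markers (5 of 10 fell) summed to 452 to 517 CPM against 606 to 656 CPM. Most of the stromal sum came from the collagen genes Col1a1, Col1a2 and Col3a1, at wild-type means of 591, 895 and 1348 CPM. Per 100 CPM of stromal markers, Plxnb1 stood at 8.41 ± 0.466 CPM in Rnf111+/- ovaries and 8.09 ± 1.04 CPM in wild-type ovaries (SD, n = 3 each), and Plxnd1 at 5.88 ± 0.693 and 5.82 ± 0.769 CPM, and the groups overlapped for both. Ephb2 and Unc5a overlapped on this scale as well. All 5 genes that rose stayed apart, but this was fixed in advance. They lay apart in CPM, and dividing by a sum lower in every Rnf111+/- library could only keep them apart. Per 100 CPM of surface epithelium markers, Plxnb1 did not overlap (38.2 ± 3.07 CPM in Rnf111+/- ovaries and 46.1 ± 3.81 CPM in wild-type ovaries), nor did Ephb2 (2.03 ± 0.307 and 3.46 ± 0.959 CPM) or Unc5a (0.976 ± 0.197 and 1.37 ± 0.135 CPM), whereas Plxnd1 did. Ephb2 and Unc5a also stayed apart per 100 CPM of endothelial markers, at means of 2.51 and 1.21 CPM in Rnf111+/- ovaries, against 4.2 and 1.64 CPM in wild-type ovaries. Per 100 CPM of pericyte and smooth muscle markers, all 4 genes that fell overlapped. Their means differed by -0.00 (Plxnb1), -0.04 (Plxnd1), -0.50 (Ephb2) and -0.21 (Unc5a) on the log2 scale. The 5 that rose stayed apart, which was again fixed by a sum lower in every Rnf111+/- library. Granulosa markers were higher in sum, at 8075 to 10741 CPM in Rnf111+/- ovaries against 3747 to 7486 CPM in wild-type ovaries, with 1 of 10 called higher. This sum rose mainly through Gja1, Inha and Inhba, none of which was called. Fitted changes were above 0 for 8 of the 10 markers, with Amh at 0.02, Foxl2 at -0.24 and Kctd14 at -0.32. Per 100 CPM of granulosa markers, Sema5a stood at 4.98, 5.94 and 7.12 CPM in Rnf111+/- ovaries, against 4.01, 4.03 and 5.42 CPM in wild-type ovaries, and the groups overlapped. Ntn4 stood at 0.624, 0.58 and 0.935 CPM, against 0.575, 0.564 and 1.1 CPM, and overlapped too, as did Epha5, Ephb6 and Sema3d. For Sema5a, Ntn4, Epha5 and Sema3d, wild-type replicate 3, whose granulosa markers summed to 3747 CPM, was the only wild-type library that reached the Rnf111+/- range. The 4 genes that fell stayed apart on the granulosa scale. This too was fixed in advance, because the granulosa sum was higher in every Rnf111+/- library. Corpus luteum markers summed to 6028 to 8967 CPM in Rnf111+/- ovaries, against 2303 to 3627 CPM in wild-type ovaries. By edgeR, 0 of 10 were called higher and 1 lower. The higher sum came mainly from Akr1c18, Sfrp4 and Ptgfr, while 6 of the 10 had fitted changes below 0. Oocyte markers (5 of 10 rose) summed to 228 to 308 CPM in Rnf111+/- ovaries, against 169 to 189 CPM in wild-type ovaries. Theca markers (1 of 10 rose and 4 fell) summed to 11015 to 14244 CPM in Rnf111+/- ovaries, against 16210.1 to 17445 CPM in wild-type ovaries. Of nerve markers 1 of 6 tested fell, and no macrophage, lymphocyte or oviduct marker was called by edgeR, with 2, 0 and 0 of them at an unadjusted p under 0.05. The part of these cell types in the guidance gene results was not tested.

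**Figure D5:**
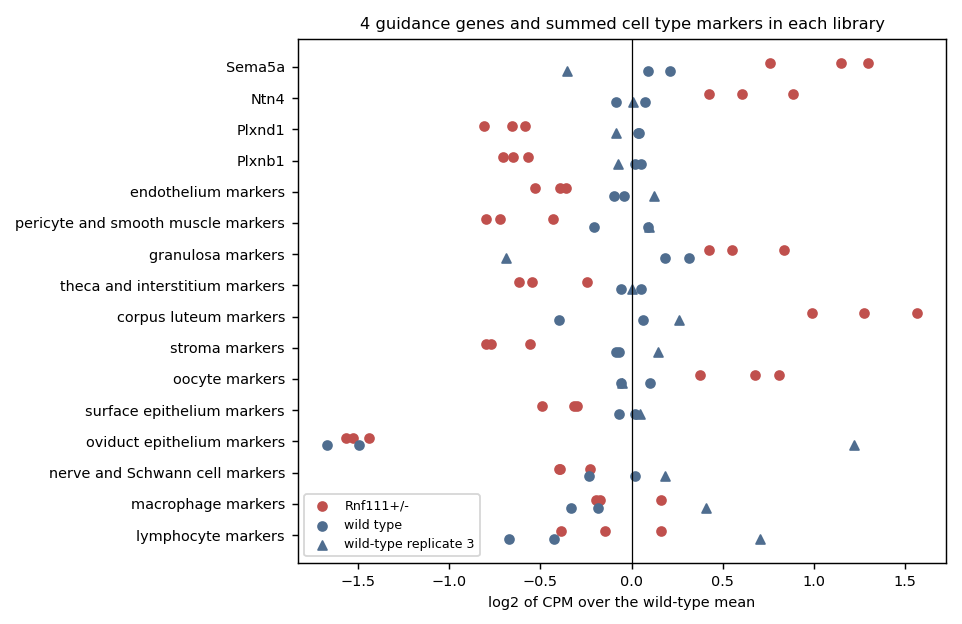
Log2 of the CPM over the wild-type mean (x axis) for Sema5a, Ntn4, Plxnd1 and Plxnb1 and for the summed markers of 12 cell type lists, with 1 point for each Rnf111+/- (red) and wild-type (blue) library and a triangle for wild-type replicate 3. Plxnd1 and Plxnb1 lie below 0 in the Rnf111+/- libraries, as do endothelial, muscle, stromal, surface epithelium, theca, nerve and oviduct markers. Wild-type replicate 3 stands alone in oviduct markers.

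The spread between mice of one genotype was wider for guidance genes, by its median, than for all genes. Among the 62 with a mean of at least 1 CPM, the median coefficient of variation was 12.2% over Rnf111+/- libraries and 13.6% over wild-type libraries, against 8.17% and 10.4% over the 14309 tested genes at that level. Wild-type replicate 3 was at least 0.5 on the log2 scale above the mean of the other wild-type libraries in 7 of the 62 and below it in 10. Together these were 27.4% of them, against 18.1% of all such genes. Sema3e (1.70 above), Slit3 (0.88), Robo2 (0.73) and Nrp2 (0.67) were among those above, and Sema3b (-0.88) and Efna5 (-0.81) among those below. Without that library, 8 guidance genes were called higher and 5 lower, beside 7.37% and 8.82% of all genes tested in that fit. Of the 9 calls, 7 were kept, with Epha5 and Sema3d lost and Efna5, Plxna2, Robo2, Sema4d, Unc5b and Plxna1 gained.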

How the data were processed

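The authors deposited 1 table of raw read counts per gene for 6 ovary libraries, with gene symbols and 0 columns without a sample. Per the submitters' processing notes, fastp 0.20.1, HISAT2 2.1.0, HTSeq 0.11.2, DESeq2 1.38.3 and build GRCm39 were used. The sources used here give neither their roles nor the annotation or strand setting, so antisense and overlapping genes may share reads. Groups came from the genotype in the labels.

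The tests used edgeR 4.0.16 (R 4.3.3): filterByExpr (minimum count 10, minimum total 15), TMM scaling, a robust quasi-likelihood fit with genotype as its only term, and Benjamini-Hochberg adjustment over all 16841 tested genes. SE is the absolute log2 fold change over the square root of F. Levels are TMM-scaled CPM. The fits were checked on simulated counts. A count of 3 corresponds to 0.076 to 0.0784 CPM of the library totals before TMM scaling, and such floors cover counting error only. The p-values set the difference between genotypes against the spread between mice, in estimates that share information across genes. Each library was kept as its own replicate (the closest pair had a chi-square over degrees of freedom of 9.6). DESeq2 1.42.0 and limma 3.58.1 (voom) were alternatives.

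The genes, partner list, markers and motifs were chosen with earlier results of these data known. Values per library are given for called members, a chosen list of members that stand for each family and, of partners, up to 4 per direction with the smallest p; others are marked. Exon overlaps come from GENCODE M21 (GRCm38), for names only. Levels of different genes were not compared, because gene length was not used.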

Additional observations from a re-analysis of the deposited data

How the results depend on the processing

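The numbers of guidance genes called higher and lower (5 and 4) were the same with both other scalings, and the number higher moved by over 1.5 times with DESeq2, which called 8 higher and 5 lower. DESeq2 also called more of all genes, at 6.96% higher and 8.57% lower. Leaving out 1 library at a time gave 1 to 8 guidance genes higher and 2 to 5 lower, and 2 to 8 partner genes higher and 3 to 10 lower (6 and 9 with all libraries). The extremes were 1 and 2 guidance genes without Rnf111+/- replicate 2 and 8 and 5 without wild-type replicate 3. Partner counts went the same way, with 2 and 3 without the first and 8 and 10 without the second. The number of genes called over the whole table moved with them, at 1.35% higher and 1.72% lower without Rnf111+/- replicate 2. The replicate numbers gave no evident pairing of the mice, and the labels name no shared litter. Same-numbered libraries had correlations of deviations of 0.012, 0.006 and 0.1, against -0.071 to 0.059 for differently numbered ones. The value of 0.1, for replicates 3, was the highest, so pairing was neither shown nor excluded. With the replicate block, 4 guidance genes were called higher and 5 lower, sharing 6 of the 9 calls, and Plxna1 passed (-0.44, adjusted p = 0.0261). Of the called guidance genes and the chosen list of members, 3 changed sign, each without 1 library. Sema3e ran from -0.76 to 0.35, Robo1 ran from -0.02 to 0.17 and Unc5c from -0.00 to 0.38. Sema6c and Sema6d, named after their values were seen, changed sign too. With a library left out Sema6c ran from -0.06 to 0.09, and Sema6d stood at 0.01 with upper-quartile scaling. Depth limits genes such as Plxnb3, Efna3 and Sema4f, with 0 to 47 counts in a library.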
